A study of Mus musculus with 36 samples.

Results

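Wild-type osteoblast cultures were compared with wild-type bone marrow macrophages, using the 6 libraries that the labels name as osteoblasts from control mice and the 6 they name as macrophages from control mice. These 12 libraries are part of 36 in the whole series, whose other libraries were RANK-L cultures of the same genotype and cells of Mir324-null mice. All mice were 20 weeks old, and the genotype of both groups was wild-type control. For the macrophage group, marrow was spun out of the long bones, kept for 3 days in M-CSF at 100 ng/mL and then for 5 days in M-CSF alone at 30 ng/mL. For the osteoblast group, chips of the emptied bone were treated with collagenase for 1 hour, cells grew out of them for about 6 weeks, and the outgrowth was kept for 18 days in medium with 2 mM β-glycerophosphate and 50 µg/mL ascorbic acid. The labels name RANK-L for neither group. The 6 wild-type RANK-L cultures (M-CSF at 30 ng/mL with RANK-L at 50 ng/mL for 5 days, called osteoclast cultures here) were not part of the main test. They entered the scaling of the libraries and gave a reference level for osteoclast genes and for some others. Both main groups are primary mixed cultures with no sort named in the labels, so cell type, tissue compartment, medium and time in culture cannot be told apart. The labels do not say that the libraries of a group came from separate mice, and p-values therefore measure the spread between these samples, which may be partly technical.

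Macrophages derive from haematopoietic stem cells and depend on M-CSF acting through the receptor Csf1r. Their gene program is set in large part by the Ets factor PU.1, encoded by Spi1, and with RANK-L the same precursors fuse into osteoclasts, the cells that resorb bone. Osteoblasts belong to the mesenchymal lineage: Runx2 and then Sp7 direct their differentiation, and the mature cell secretes type I collagen, mineral-binding proteins and alkaline phosphatase. Osteoblast-lineage cells also make M-CSF, RANK-L and the RANK-L decoy osteoprotegerin, the signals on which macrophages and osteoclasts depend.

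Promoter sequence was examined first for the letters that PU.1 and the Runx factors are known to recognise. In RefSeq promoters of build GRCm38.p6, covering 250 bases before to 50 bases after each gene start, the PU.1-like letters GAGGAAGT occurred on either strand in 3.69% of the 27025 genes with a promoter sequence. Among genes that were tested they occurred in 391 of 10239 (3.82%), among those at least 4-fold lower in the osteoblast cultures in 37 of 267 (13.9%), and among those at least 4-fold higher in 40 of 1644 (2.43%). Of the pan-leukocyte genes listed for the analysis, 5 of 20 with a promoter sequence held the letters, of the macrophage genes 3 of 20, and of the collagen chains 0 of 14. The neutrophil list had the highest share of any list, at 5 of 12. The letters were not confined to leukocyte lists: they occurred in 2 of 13 mesenchymal receptors and 1 of 13 mesenchymal factors. They occurred in 0 of 8 resident macrophage, 0 of 8 lipid-associated macrophage and 0 of 10 osteoclast genes. Beside 3.82% of the tested genes, lists this short cannot show whether 0 or 1 match follows lineage. The Runx letters TGTGGTT, which overlap the first motif in none of the windows shown, occurred on either strand in 6.09% of all genes with a promoter sequence, 4.54% (465 of 10239) of the tested genes, 8.24% (22 of 267) of the lower and 4.81% (79 of 1644) of the higher ones. A match is a description of the sequence and not a binding site. The windows of 30 bases below are on the gene's own strand, 5′ to 3′, with the motif or its reverse complement in capitals. The first 6 are leukocyte and macrophage genes with the PU.1-like letters, and the next 3 are genes of either lineage with the Runx letters.
Cd37, chr7:45238846-45238875, minus strand: acccccccggaACTTCCTCtttctctgccg
Vav1, chr17:57279078-57279107, plus strand: cagtcacagaaGAGGAAGTggtgttgtagt
Cd53, chr3:106790125-106790154, minus strand: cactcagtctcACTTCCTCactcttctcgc
C1qc, chr4:136893091-136893120, minus strand: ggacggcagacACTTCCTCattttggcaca
Ctss, chr3:95526773-95526802, plus strand: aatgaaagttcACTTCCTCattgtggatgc
Hpgds, chr6:65144761-65144790, minus strand: gcttttaggtgGAGGAAGTggcctctggct
Runx2, chr17:44814690-44814719, minus strand: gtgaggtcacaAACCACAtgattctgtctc
Lyz2, chr10:117282321-117282350, minus strand: caaatgtaggaAACCACAagctgttgggaa
Cybb, chrX:9469409-9469438, minus strand: tgtagtttttgTGTGGTTtgaagttttaaa
Spp1, which was abundant in both kinds of culture, held both motifs close together, and its 2 windows are shown for that reason.
Spp1 with the Runx letters, chr5:104434971-104435000, plus strand: tttttttttttAACCACAaaaccagaggag
Spp1 with the PU.1-like letters, chr5:104434987-104435016, plus strand: caaaaccagagGAGGAAGTgtaggagcagg

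The macrophage libraries held 17928674 to 23479985 estimated counts and the osteoblast libraries 17048358 to 21601489. Between 15220 and 15831 genes had a count in a macrophage library and between 16743 and 17085 in an osteoblast library. Mitochondrial genes took 0.714 to 0.851% and 0.912 to 1.07% of counts. The biological coefficient of variation within the group was 11.8% in macrophages and 12.7% in osteoblast cultures. Levels are given in CPM, the count of a gene divided by its library's total and put on a common scale, after scaling by the trimmed mean of M-values, and means as ± SD over the 6 libraries of a group. Where a gene had 0 counts over all 6 macrophage libraries its fold is a lower bound set at 3 counts over the group, and where it had 1 to 3 counts the ratio is given with its 95% Poisson interval. Both cover counting error only.

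The 2 cultures differed in most genes that were measured. The quasi-likelihood test of edgeR called 10841 (81.1%) of the 13373 genes tested at an adjusted p below 0.05, 5891 (44.1%) higher and 4950 (37%) lower in the osteoblast cultures. With the added requirement of a 4-fold difference the counts were 2674 (20%) in all, 2302 (17.2%) higher and 372 (2.78%) lower. The difference was unequal in depth. Among the 1895 genes that averaged at least 100 CPM in the osteoblast cultures, 188 (9.92%) were present in macrophages at under 1% of that level and 119 (6.28%) at under 0.1%. Among the 1959 genes that averaged at least 100 CPM in macrophages, 0 were under 1% in the osteoblast cultures, 7 (0.357%) were under 10%, and 64 lay between 10 and 20%. Part of the strongly expressed genes of the osteoblast cultures were thus nearly missing from the macrophage libraries, while every strongly expressed gene of the macrophages was still detected in the osteoblast cultures.

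**Figure D1:**
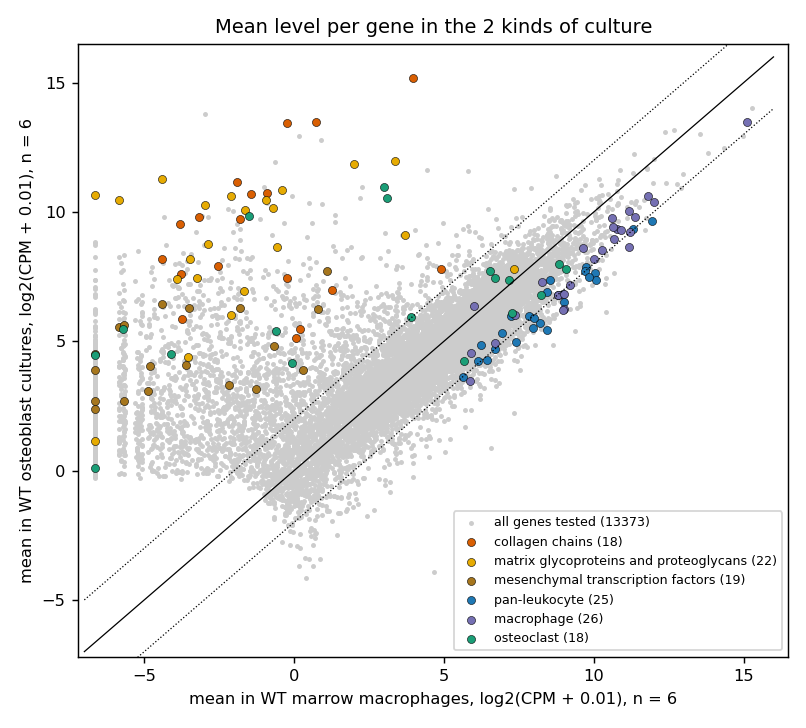
Mean level of each of the 13373 tested genes in the 6 wild-type macrophage libraries (horizontal) and the 6 wild-type osteoblast libraries (vertical), as log2(CPM + 0.01); the solid line marks equal levels, the dotted lines a 4-fold difference, and 6 gene lists are coloured. Collagen, matrix glycoprotein and mesenchymal factor genes spread over the upper left, most of them far above the line, whereas pan-leukocyte and macrophage genes form a narrow band just below it.

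Collagen took a larger share of counts than any other mesenchymal list. All 18 collagen chains in the list rose, every one by at least 4-fold (17.2% of all genes tested did so), with a median log2 fold change of 11.38 against 0.08 over all genes tested. Together they took 6.81% ± 0.866 (SD, n = 6) of the counts in osteoblast libraries and 0.00528% in macrophages. Counts favour long transcripts such as these: in TPM the collagen chains took 1.9% of the osteoblast libraries and the bone matrix and mineral genes 2.96%. Col1a1, which encodes the main chain of bone collagen (chr11:94936224-94953042), ranged from 32740 to 48090 CPM with a median of 34320 in the osteoblast cultures, and from 6.88 to 23.5 with a median of 14.8 in macrophages. Replicates 6 and 2 held the highest osteoblast values, and the groups were far apart. The log2 fold change was 11.22 (SE 0.34, edgeR adjusted p 4.0e-12). Col3a1, the chain of type III collagen found in loose connective tissue, averaged 11160 CPM against 0.830 (log2 fold change 13.69, SE 0.26). The smallest rise in the list was that of Col18a1, a basement membrane chain, at 225 ± 61.4 against 29.8 ± 5.27 CPM (log2 fold change 2.92, SE 0.18).

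The enzymes and chaperones that hydroxylate, fold and cross-link collagen rose with it. All 18 were called higher (44.1% of all genes tested were) and 14 rose by at least 4-fold (17.2% did so). Their median log2 fold change was 6.85, and their share of counts was 1.65% ± 0.0674 against 0.0697%. Serpinh1, the collagen chaperone of the endoplasmic reticulum, averaged 7037 CPM in the osteoblast cultures and 1.87 in macrophages (log2 fold change 11.83, SE 0.38). Lox, a lysyl oxidase that cross-links collagen outside the cell, averaged 3939 ± 142 against 0.638 ± 0.486 CPM. Hydroxylases that many cells use moved less: P4ha1, a prolyl hydroxylase subunit, was 695.8 against 176 CPM (log2 fold change 1.98, SE 0.10), and Plod1, a lysyl hydroxylase, was 345 ± 15.2 against 302 ± 12.6 (0.19, SE 0.05, edgeR adjusted p 0.0012). Of the 22 matrix glycoproteins and proteoglycans, all 22 rose and 21 by at least 4-fold (median 11.02). Thrombospondin 1 (Thbs1) averaged 3977 against 10.4 CPM, fibronectin (Fn1) 3736 against 3.95, and periostin (Postn) 1588 against 0.220. The exception to the 4-fold rise was Tgfbi, which many macrophages also secrete, at 223 ± 13.6 against 164 ± 20.4 CPM (log2 fold change 0.45).

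The 10 genes with the largest rise among those averaging at least 100 CPM in the osteoblast cultures were led by small proteoglycans of the matrix and by Ibsp. Decorin (Dcn), a small proteoglycan that binds collagen fibrils (chr10:97479609-97518143), ranged from 1181 to 1960 CPM with a median of 1751 and had 0 counts in all 6 macrophage libraries, so it was at least 61400-fold higher. Its neighbour lumican (Lum), of the same proteoglycan family, averaged 2474 ± 511 CPM on 4 macrophage counts, and fibromodulin (Fmod) 1416 CPM on 1 macrophage count, a ratio of 189000 (95% interval 28600 to 6290000). Tmem45a, Rcn3, Cpxm2, Igfbp2, Alpl and Mfap2 each had 0 macrophage counts and were at least 17400, 16600, 16100, 11600, 8150 and 6170 times higher.

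Genes of bone mineral and of the osteoblast itself were high, and uneven between the osteoblast libraries. In the list of osteoblast matrix and mineral genes all 13 tested members of 14 rose, 10 of them by at least 4-fold (44.1% and 17.2% of all genes tested did so). The median was 10.05, or 9.27 with genes of 0 to 3 macrophage counts at their bound. Bone sialoprotein (Ibsp), an acidic protein that seeds mineral (chr5:104299171-104311469), ranged from 11240 to 17900 CPM with a median of 14310, and from 0.0449 to 0.175 in macrophages, where it had 13 counts in all. Its log2 fold change of 16.84 (SE 0.20, edgeR adjusted p 7.7e-20) came with no overlap. Osteopontin (Spp1), encoded close by (chr5:104435118-104441050) and made by osteoblasts and macrophages alike, ranged from 5069 to 12330 CPM with a median of 8778, and from 4303 to 6603 in macrophages. Its groups overlapped and the log2 fold change was 0.74 (SE 0.21, edgeR adjusted p 0.0061). In the deposited TPM, which allows levels of different genes to be set side by side, Ibsp averaged 10640 and Spp1 10450 in the osteoblast cultures, and 0.0867 and 6200 in macrophages. Osteonectin (Sparc), which binds collagen and calcium, averaged 7925 CPM against 1.11.

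Alkaline phosphatase (Alpl), the enzyme that frees phosphate for mineral, had 0 counts in every macrophage library. Its osteoblast values were 165, 234, 168, 159, 173 and 407 CPM in replicates 1 to 6. The value in replicate 6 stood apart from the other 5. Late genes were lower: Bglap and Bglap2, the near-identical copies of the osteocalcin gene whose counts may be split uncertainly between them, had medians of 18.3 and 29.5 CPM, with 1 and 0 macrophage counts. Among genes of the osteocyte, the cell an osteoblast becomes inside bone, 5 of 9 passed the filter on low counts. Of these, 4 rose by at least 4-fold (17.2% of all genes tested did so). Cd44, a hyaluronan receptor common on leukocytes, fell (241.9 ± 15.0 against 435 ± 36.3 CPM). Dmp1, which osteocytes secrete into mineral, ranged from 1.36 to 1.86 CPM in 5 osteoblast libraries and was 6.15 in replicate 6.

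**Figure D2:**
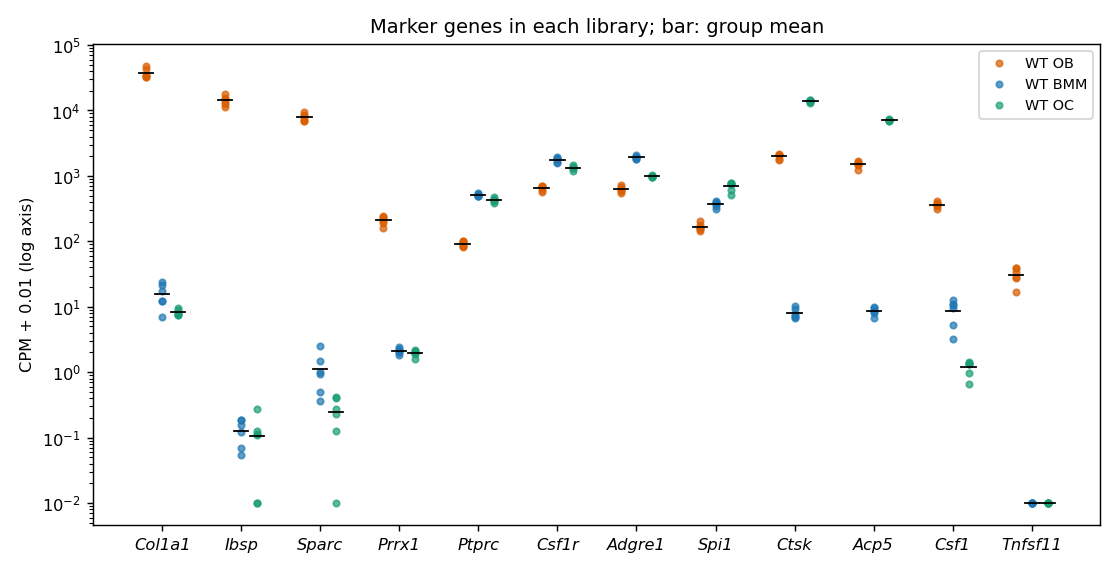
Level of 12 marker genes in each library of the wild-type osteoblast, macrophage and osteoclast cultures, as CPM + 0.01 on a log axis, with 1 point per library and a bar at the group mean. Col1a1, Ibsp, Sparc, Prrx1, Csf1 and Tnfsf11 are highest in the osteoblast cultures, Ptprc, Csf1r, Adgre1 and Spi1 lie below the macrophages there, and Ctsk and Acp5 lie between the macrophage and the osteoclast cultures.

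Transcription factors of the mesenchymal lineage followed the matrix genes. Of 20 factors, 19 were tested and all 19 rose by at least 4-fold (median 8.69, or 7.92 with bounds), as did 17.2% of all genes tested. Prrx1, a homeobox factor of limb mesenchyme, ranged from 163 to 243 CPM with a median of 217.6, and from 1.82 to 2.43 in macrophages (log2 fold change 6.62, SE 0.12, edgeR adjusted p 5.3e-18). Twist1, a factor that holds mesenchymal cells back from differentiation, was low, at 4.39 to 8.87 CPM, but had 0 macrophage counts and was at least 243-fold higher. Snai1, a repressor of epithelial genes, averaged 87.2 CPM against 0.0367. The 7 tested osteoblast regulators of 11 also all rose (44.1% of all genes tested did so), 6 of them by at least 4-fold. Runx2 (chr17:44495987-44814797) ranged from 21.5 to 33.4 CPM with a median of 24.5, and was not absent from macrophages, where it ranged from 1.79 to 3.06 (log2 fold change 3.40, SE 0.16, edgeR adjusted p 1.9e-12). Sp7, which acts after Runx2, ranged from 17.6 to 34.6 CPM with a median of 21.7 and had 0 macrophage counts, at least 875-fold higher. These 2 regulators of the same lineage thus differed in their macrophage level, 1 detected in all 6 libraries and the other in none. Atf4, a stress-response factor that osteoblasts need and most cells make, rose least, at 80.2 ± 5.17 against 54.8 ± 3.43 CPM.

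Receptors and adhesion molecules of stromal cells rose in 18 of 19 cases, all 18 by at least 4-fold (17.2% of all genes tested did so). Their median was 8.06, or 7.93 with bounds. The collagen receptor subunit Itga11 averaged 483.5 CPM against 0.279, the cadherin Cdh11 245 against 0.208 and the PDGF receptor Pdgfrb 133 against 0.0575. Thy1, a surface marker of mesenchymal cells, was at least 5130-fold higher on 0 macrophage counts. Endoglin (Eng), a TGF-β co-receptor also known from macrophages, was 34.1 ± 8.31 against 41.4 ± 3.40 CPM, did not pass the test (log2 fold change -0.28, edgeR adjusted p 0.063) and overlapped between groups. Without osteoblast replicate 2 its log2 fold change was -0.38 (edgeR adjusted p 0.0057) and without osteoblast replicate 6 -0.32 (edgeR adjusted p 0.049). The receptor for parathyroid hormone, Pth1r, an osteoblast gene, was highest in replicate 6: it ranged from 15.0 to 24.3 CPM in 5 osteoblast libraries and was 38.1 in replicate 6. That value was not among those flagged further below. All 11 genes of the contractile list rose by at least 4-fold (median 9.19). Smooth muscle actin (Acta2), the marker of myofibroblasts, averaged 1279 ± 108 CPM against 1.89 ± 0.425 (log2 fold change 9.40, SE 0.12), and tropomyosin 1 (Tpm1), which most cells make, 839 against 107.

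**Figure D3:**
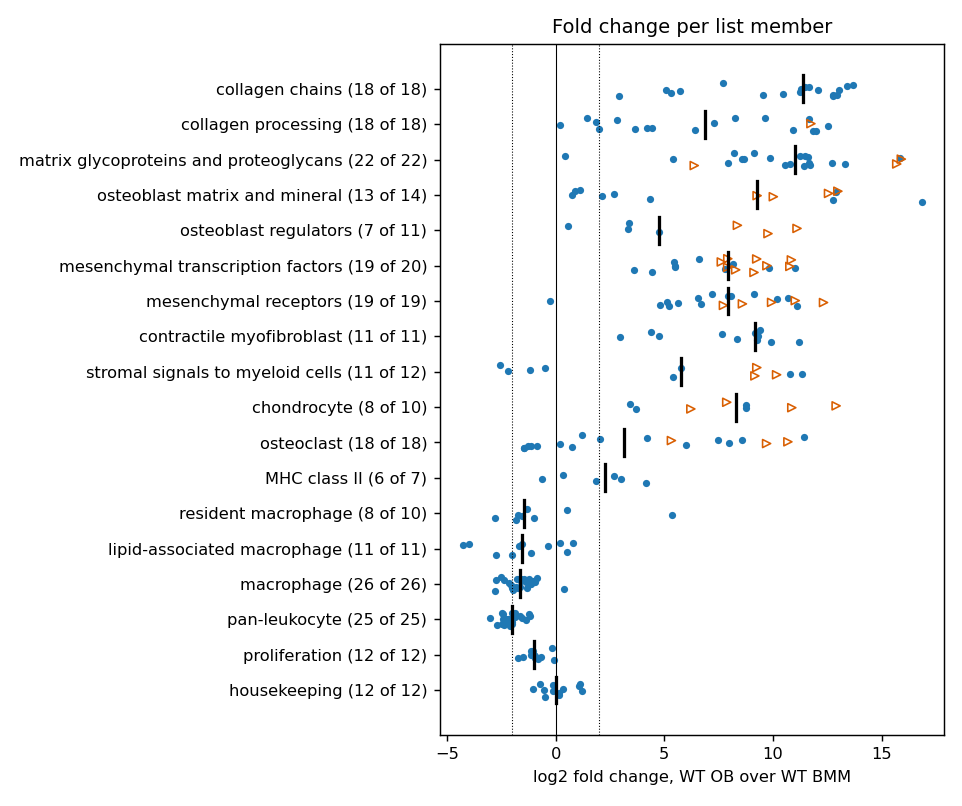
Log2 fold change of osteoblast over macrophage cultures for each tested member of the gene lists (dots), with members at 0 to 3 macrophage counts at their bound (triangles), the list median with bounds (bar) and dotted lines at a 4-fold difference. The mesenchymal lists have medians between 4.76 and 11.38, the pan-leukocyte genes lie between -3.00 and -1.16, and the osteoclast list is spread over both sides of 0.

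Most, but not all, of the listed stromal signals to macrophages and osteoclasts were higher in the osteoblast cultures. Of 12 such genes 11 were tested. Of these 7 rose, all by at least 4-fold, and 4 fell, 2 of them by at least 4-fold (median 5.76). Among all genes tested 44.1% were higher, 17.2% by at least 4-fold, and 37% lower, 2.78% by at least 4-fold. As a list they summed to 1630 to 1920 CPM in osteoblast libraries and 1730 to 2100 in macrophages, so their total was not higher. M-CSF (Csf1) ranged from 307 to 413 CPM with a median of 366 in the osteoblast cultures, whose medium is not stated to hold M-CSF, and from 3.24 to 12.7 in macrophages, whose medium held it (log2 fold change 5.38, SE 0.26, edgeR adjusted p 8.2e-10). Il34, the other ligand of Csf1r, averaged 15.4 CPM on 1 macrophage count, a ratio of 1570 (95% interval 310 to 68300). RANK-L (Tnfsf11) ranged from 16.7 to 39.3 CPM with a median of 31.3 and had 0 macrophage counts, at least 1150-fold higher. Its decoy osteoprotegerin (Tnfrsf11b) averaged 135 ± 15.8 CPM and was at 0 in 5 macrophage libraries and 0.359 in the other. In TPM, osteoprotegerin averaged 71.5 in the osteoblast cultures, and Csf1 averaged 167. The chemokine Cxcl12, which keeps blood progenitors in marrow, averaged 199 CPM against 0.0700. The 4 that fell, a share near that of all genes tested, were signals that the macrophages made as well. The chemokine Ccl2 was 60.4 ± 8.25 against 359 ± 57.2 CPM (log2 fold change -2.57), Igf1 555 against 1248 (-1.17), and Kitl, the stem cell factor usually ascribed to stroma, 14.8 ± 3.66 against 66.7 ± 10.7 (-2.18, SE 0.15, edgeR adjusted p 3.0e-09). The fourth, Ccl7, fell by less and overlapped between groups, at 194 against 269 CPM.

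All 25 pan-leukocyte genes fell in the osteoblast cultures, 14 of them by at least 4-fold (2.78% of all genes tested did so), but none was lost. The median log2 fold change was -2.03 and the members lay between -3.00 and -1.16. The common leukocyte antigen CD45 (Ptprc, chr1:138062861-138175708) ranged from 81.9 to 101 CPM with a median of 90.5 in the osteoblast cultures and from 486 to 555 with a median of 505 in macrophages. The 6 osteoblast values were close together and well apart from the macrophage ones (log2 fold change -2.49, SE 0.07, edgeR adjusted p 6.9e-16). Spi1, the gene of PU.1, fell least: it ranged from 143 to 202 CPM with a median of 159, against 313 to 411 with a median of 375 (log2 fold change -1.16, SE 0.08). Dock2, an activator of Rac in leukocytes, fell most, to 43.5 ± 5.51 from 348 ± 16.3 CPM. The lymphoid and myeloid factor Ikzf1 was 12.3 against 49.96 CPM (-2.03). Among the genes whose promoter windows were shown above, Cd37, Vav1 and Cd53 had log2 fold changes of -1.89, -1.87 and -1.87.

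The level of leukocyte genes in the osteoblast libraries was expressed as a percentage of their macrophage level, gene by gene. Over the pan-leukocyte list its median was 24.5, 23.7, 25.2, 21, 25.1 and 22.0% in osteoblast replicates 1 to 6 (23.6% ± 1.73, SD). Single genes lay between 12.5% for Dock2 and 44.8% for Spi1, with 12 of 25 between 20 and 30%, 8 below and 5 above. Over the 26 macrophage genes the median per library was 30.1 to 34.6% (32.2% ± 2.05), and single genes spread from 14.6 to 129%. The osteoblast libraries were thus alike in this measure, while the genes within a list were not. Against the osteoclast cultures in place of the macrophages the same medians were 29.8% ± 2.04 and 78.5% ± 6.31, so the percentage depends on the reference chosen. Fewer cells of the myeloid type and less RNA of these genes per cell cannot be told apart in RNA from a whole culture.

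**Figure D4:**
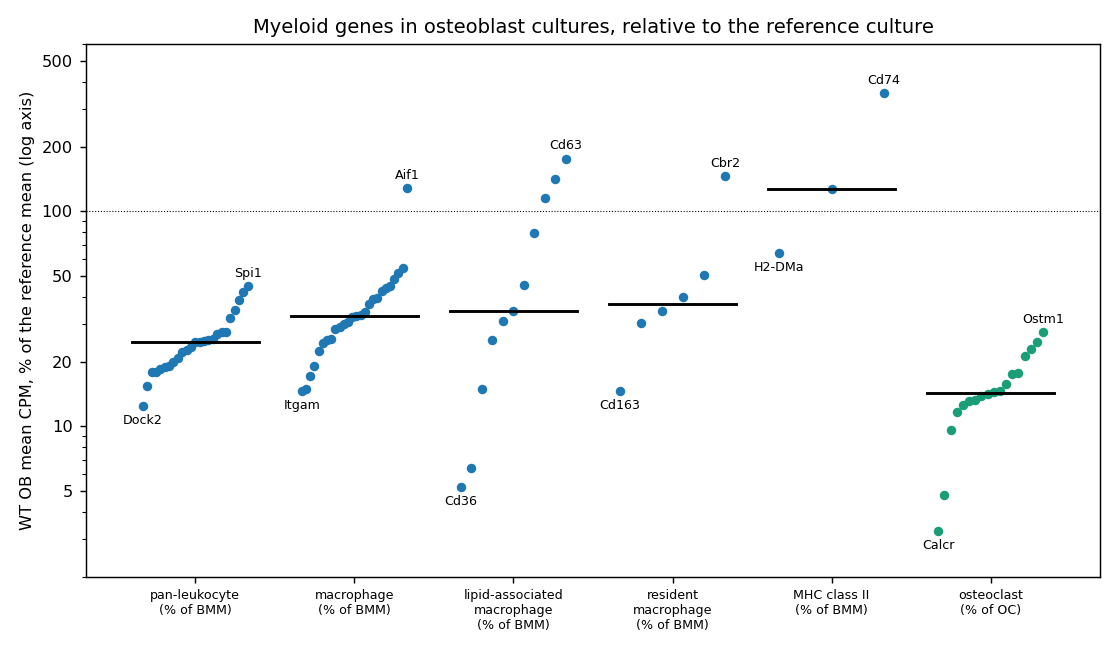
Mean level of each list member in the 6 osteoblast libraries as a percentage of its mean in the reference culture (macrophages, or osteoclast cultures for the osteoclast list), on a log axis, for members with at least 10 CPM in the reference; bars are medians and the dotted line marks 100%. Pan-leukocyte genes lie between 12.5 and 44.8%, macrophage genes reach 129%, and the osteoclast list goes down to 3.25%.

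Macrophage genes fell in 25 of 26 cases, 6 of them by at least 4-fold (37% and 2.78% of all genes tested did so), with a median of -1.62. Csf1r ranged from 577 to 697 CPM with a median of 675 in the osteoblast cultures and from 1588 to 1926 with a median of 1808 in macrophages (log2 fold change -1.43, SE 0.07, edgeR adjusted p 1.3e-12). The F4/80 antigen (Adgre1), a classical mouse macrophage marker, ranged from 553 to 732 against 1792 to 2117 CPM (-1.61, SE 0.07). Neither gene overlapped between groups. Lysozyme (Lyz2) was second in TPM in both cultures (pseudogenes, predicted and mitochondrial genes left out), at 14900 in the osteoblast libraries and 45770 in macrophages, behind the ferritin light chain Ftl1 at 30000 and 70940. Ftl1 has many pseudogene copies and Lyz2 a close relative, so their counts may be shared with these. A lysosomal enzyme of phagocytes was therefore more abundant by TPM in the osteoblast libraries than any gene of bone matrix, the highest of which was Ibsp. The lowest percentages of the list were those of Itgam, the integrin of complement uptake, at 14.6% of the macrophage level, and of the endotoxin co-receptor Cd14 at 14.9%. Aif1, a cytoskeletal protein of macrophages, rose against the list, to 82.1 ± 9.49 from 63.6 ± 6.24 CPM (0.37, SE 0.08, edgeR adjusted p 0.00045), with overlap between groups.

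The 10 genes with the largest fall among those averaging at least 100 CPM in macrophages were led by Atp8b4, a putative phospholipid flippase, at 4.66 ± 0.785 against 163 ± 17.3 CPM (35.0-fold lower, log2 fold change -5.12). Next came genes of fatty acid uptake. The scavenger receptor and fatty acid transporter Cd36 (chr5:17781690-17888801) ranged from 54.2 to 92.0 CPM with a median of 67.3, and from 1099 to 1599 with a median of 1331 in macrophages (log2 fold change -4.27, SE 0.14, edgeR adjusted p 3.1e-13). Lipoprotein lipase (Lpl) ranged from 35.5 to 53.5 against 462 to 1011 CPM (-3.98, SE 0.20), and it stayed high in the osteoclast cultures at 876 CPM. At 5.20 and 6.37% of the macrophage level, both lay below every pan-leukocyte gene. The others were the adhesion molecule Alcam (-3.80), the immunoglobulin heavy chain Ighm (-3.66), the chemokines Ccl4 (-3.49) and Ccl6 (-3.19), and Rgs1, Rasal3 and Cd180 (-3.45, -3.20 and -3.20), which act in leukocyte signalling. Ighm was also low in the osteoclast cultures, at 19.9 CPM against 186 in macrophages and 14.7 in osteoblast cultures. Of the 10 listed B cell genes, 6 averaged under 1 CPM in the macrophage libraries, among them Pax5 and Ms4a1 at 0 and 0.337 CPM. At least 10 CPM was reached by 2, Ighm included. Which cells held the Ighm transcripts was not tested.

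Other macrophage states did not move as one. For comparison, 44.1% of all genes tested were higher, 17.2% by at least 4-fold, and 37% were lower. Of 11 lipid-associated genes 8 fell, among them Gpnmb, a glycoprotein of lysosome-rich macrophages, at 1957 against 7798 CPM. Apolipoprotein E (Apoe) rose to 9330 ± 426 from 6560 ± 1190 CPM (log2 fold change 0.51, SE 0.10) and the tetraspanin Cd63 to 2128 from 1211, both without a 4-fold change, and the fatty acid carrier Fabp5 did not pass the test (0.21, edgeR adjusted p 0.15) unless macrophage replicate 1 was left out (0.32, edgeR adjusted p 0.0066). Apoe was at 571 CPM in the osteoclast cultures. Of 8 tested resident macrophage genes 6 fell and 2 rose. The complement receptor Vsig4 ranged from 14.5 to 27.3 CPM with a median of 24.8, against 0.404 to 0.699 in macrophages (5.34, SE 0.21, edgeR adjusted p 2.2e-13), and the carbonyl reductase Cbr2 averaged 198 against 135 CPM. The haemoglobin scavenger Cd163, of the same list, was 3.87 ± 1.03 against 26.6 ± 2.60 CPM. Of 6 tested MHC class II genes, whose products present peptides to T cells, 5 rose, 3 of them by at least 4-fold. H2-Ab1 ranged from 95.98 to 120 CPM with a median of 98.5 against 3.77 to 8.71 (4.14, SE 0.14), and the invariant chain Cd74 averaged 79.7 ± 22.9 against 22.4 ± 7.89. H2-DMa, which loads the peptide, was the member that fell, at 15.8 against 24.6 CPM.

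Osteoclast genes were present in the osteoblast cultures, whose medium is not stated to hold RANK-L. All 18 members were tested, and 13 rose, 10 of them by at least 4-fold, while 5 fell (median log2 fold change 3.14). Over all genes tested 44.1% were higher, 17.2% by at least 4-fold, and 37% lower. Cathepsin K (Ctsk, chr3:95499256-95509362), the protease that degrades bone collagen, ranged from 1779 to 2185 CPM with a median of 2086, against 6.66 to 10.1 in macrophages (7.98, SE 0.11, edgeR adjusted p 3.5e-19). Tartrate-resistant acid phosphatase (Acp5), the enzyme stained to find osteoclasts, ranged from 1234 to 1664 CPM with a median of 1521 against 6.66 to 9.96 (7.46, SE 0.11). Both were present in all 6 osteoblast libraries at narrow ranges. The gelatinase Mmp9 averaged 915 ± 114 CPM against 0.342. Genes for fusion and hormone response were also there at lower level: Ocstamp, needed for fusion, ranged from 32.1 to 57.3 CPM against 0.349 to 1.17 (5.98, SE 0.20), and the receptor Oscar averaged 44.1 CPM on 1 macrophage count. The calcitonin receptor (Calcr), a late osteoclast gene, ranged from 0.732 to 1.40 CPM and had 0 macrophage counts, at least 40.2-fold higher. The 5 that fell were the lysosomal proton pump and chloride channel genes Tcirg1, Atp6v1c1, Clcn7 and Ostm1, which macrophages also use, and RANK itself (Tnfrsf11a, 18.7 ± 1.14 against 51.1 ± 7.84 CPM).

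Against the wild-type osteoclast cultures, the median of the osteoclast list per osteoblast library was 13.3, 15.8, 15.1, 14.9, 14.4 and 12.9% in replicates 1 to 6 (14.4% ± 1.10, SD), and in macrophages it was 1.65% ± 0.423. Of the 18 genes, 11 lay between 10 and 20%, 4 above and 3 below. Ctsk stood at 14.4%, Acp5 at 21.2%, Mmp9 at 13.3% and Ocstamp at 11.6%, whereas Dcstamp, the other fusion gene, stood at 4.78% and Calcr at 3.25%. Which cells of the osteoblast cultures held these transcripts was not tested, since the RNA came from whole cultures.

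Markers of other cell types varied in what they showed. Beside the counts below, 44.1% of all genes tested were higher, 17.2% by at least 4-fold, and 37% were lower. Cartilage genes were present: all 8 tested members of 10 rose by at least 4-fold (median 8.76, or 8.31 with bounds), and the list summed to 436 to 940 CPM in osteoblast libraries and 0.897 to 3.03 in macrophages. The cartilage regulator Sox9 ranged from 91.6 to 152 CPM with a median of 118 against 0.0582 to 0.521. Type II collagen (Col2a1) ranged from 152 to 205 CPM in 5 osteoblast libraries and was 357 in replicate 6, with 3 counts in macrophages. Schwann cell genes were present as well, with all 4 tested of 6 higher, 3 of them by at least 4-fold. The smallest rise was a log2 fold change of 0.29. Sox10, the glial regulator, averaged 5.63 CPM against 0 counts and was at least 211-fold higher. All 5 tested pericyte genes of 6 rose, 4 of them by at least 4-fold, and the list summed to 50.0 to 68.5 CPM against 4.25 to 10.3. In the endothelial list 4 of 11 were tested, 1 rose and 2 fell. Its sum of 105 to 199 CPM against 135 to 190 was carried by Pecam1, at 141 ± 34.2 and 144 ± 19.3 CPM (edgeR adjusted p 0.88), which macrophages also express.

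Other blood lineages differed in how much of their lists was detected. Of 12 neutrophil genes 3 were tested, and the list summed to 7.01 to 10.4 CPM in osteoblast libraries and 23.2 to 27.1 in macrophages, with 4 members at 0 counts in each group. T cell genes summed to 18.0 to 25.8 CPM against 14.5 to 21.6 (3 of 5 tested rose, 1 fell), B cell genes to 127 to 151 against 323 to 453 (2 rose, 2 fell of 4; over all genes tested 44.1% rose and 37% fell), and erythroid genes to 3.75 to 4.68 against 1.66 to 4.13, with 6 of 10 at 0 counts in each group. The B cell sum in macrophages was carried by Blnk, an adaptor also known from myeloid cells, at 204 CPM, and by Ighm at 186. Ebf1, listed for B cells but also made by stromal cells, was the B cell member highest in osteoblast cultures relative to macrophages, at 55.5 against 2.17 CPM. Of 7 megakaryocyte genes 2 were tested, 1 higher and 1 lower, and the sums were 105 to 153 and 165 to 254 CPM. Mast cell and epithelial genes, 7 each, had no member that passed the filter and summed to 0.183 to 0.966 and 0.379 to 1.02 CPM in osteoblast libraries. Adipocyte genes summed to 22.9 to 30.5 against 34.3 to 47.2 CPM, with 2 of 3 tested lower, and muscle genes to 10.9 to 21.8 against 0.873 to 1.71, with 2 of 3 tested higher. The part of any of these cell types in the results above was not tested.

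Cycling genes were lower in the osteoblast cultures, 10 of 12 passing the test against 37% lower of all genes tested (median log2 fold change -0.98). The fall reached 4-fold in 0 of them. Mki67 was at 24.3 ± 3.89 against 68.1 ± 10.1 CPM, and Cdk1 and Rrm2 were not past the threshold. Of 12 interferon-response genes 5 were higher, 5 lower and 2 not called, shares near those of all genes tested (44.1% higher and 37% lower). Irf7 was not called in the full set and was called lower without osteoblast replicate 1 (-0.66). Ifi44 was 28.8 ± 4.71 against 1.93 ± 0.772 CPM (3.88) and Ifit1 94.2 ± 29.7 against 27.2 ± 9.18 (1.79), whereas Oas2, a sensor of double-stranded RNA, was 10.2 ± 2.64 against 33.7 ± 6.44 (-1.73). The interferon genes also varied between osteoblast libraries: relative to the group mean, the median over 11 of them was 0.35 in replicate 1 and -0.66 in replicate 5 on the log2 scale. Of 12 housekeeping genes 6 rose and 5 fell, with a median log2 fold change of 0.01 that ran from -0.02 to 0.05 under other scalings and tools and so has no direction.

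The osteoblast libraries differed more in some gene groups than in others. The coefficient of variation over the 6 libraries had a median of 33.8% in the cartilage list, 19.9% in the osteoblast matrix and mineral list, 25.5% in the interferon list, 18.1% in the MHC class II list, 18.0% in the resident macrophage list, 9.22% in the pan-leukocyte list and 9.26% in the macrophage list. Over the 1895 genes averaging at least 100 CPM it was 6.8%. The lists took in members down to 1 CPM, where counting noise is larger, so these medians are not matched for level. Of the 10 cartilage genes 4 averaged at least 10 CPM, and all 25 pan-leukocyte genes did. Replicate 6 was highest for 9 of 18 collagen chains, 7 of 17 collagen processing genes, 7 of 16 mesenchymal receptors, 7 of 13 mesenchymal factors and 3 of 4 cartilage genes, but for 223 (11.8%) of the 1895 genes. It did not lead every mesenchymal list. For bone matrix and mineral genes it tied with replicate 4 at 4 of 12. It was highest for 4 of 21 matrix glycoproteins, 1 of 11 stromal signals, 0 of 3 osteocyte and 0 of 10 contractile genes. It was highest for 0 of 25 pan-leukocyte, 1 of 26 macrophage and 0 of 17 osteoclast genes. Its osteoclast median lay 0.22 below the osteoblast mean on the log2 scale. Replicate 5 was highest for 13 of 26 macrophage genes and replicate 2 for 9 of 17 osteoclast genes. No batch is named in the labels, and what sets replicate 6 apart was not tested.

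**Figure D5:**
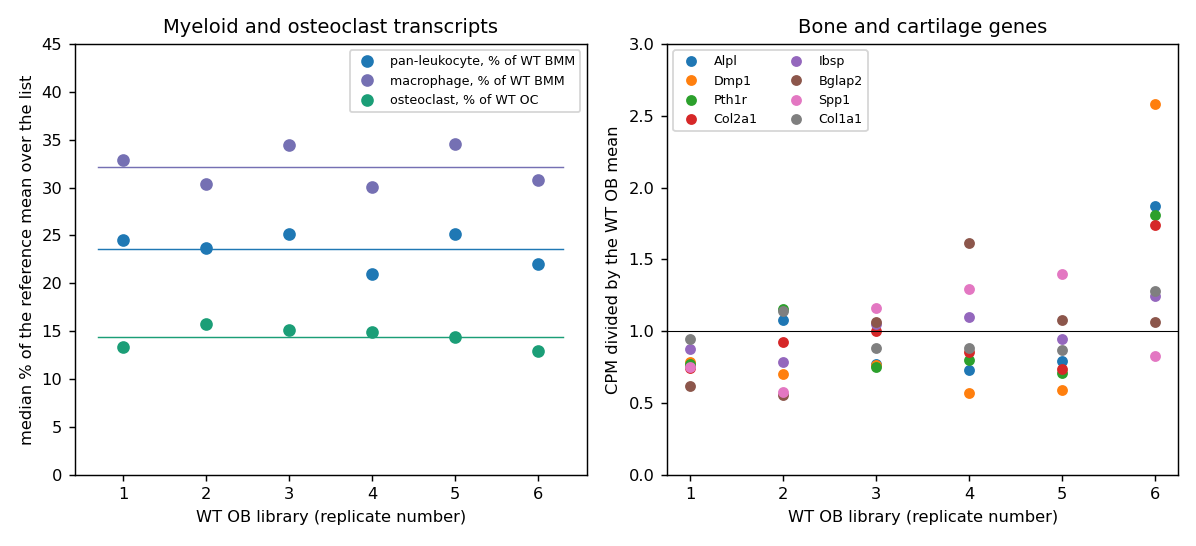
The 6 osteoblast libraries, with the median percentage of the reference level over the leukocyte, macrophage and osteoclast lists on the left and the CPM of 8 genes divided by their osteoblast mean on the right; lines on the left are means over the 6 libraries. The percentages stay within 21 to 25.2, 30.1 to 34.6 and 12.9 to 15.8, while Alpl, Dmp1, Pth1r and Col2a1 are highest in replicate 6 and Spp1 and Bglap2 in other replicates.

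Traces of mesenchymal transcripts in the macrophage libraries were summed over list genes that were low there, so a small sum follows from the choice of genes. Members at a higher macrophage level, such as Spp1, Plod1, P4ha1, Tgfbi and Tpm1, were left out. Over 91 mesenchymal list genes with at least 1 macrophage count and a macrophage mean under 10 CPM, the sums were 44.6, 42.3, 55.0, 36.7, 42.9 and 62.6 CPM in macrophage replicates 1 to 6, which is 0.04 to 0.068% of the osteoblast sum. Replicate 6 was highest for 30 of the 91 genes. It also held the most Col1a1, at 23.5 CPM, a gene above the cut and not among the 91. Whether these counts came from stromal cells in the marrow cultures was not tested.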

How the data were processed

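RNA-seq libraries of wild-type osteoblast, macrophage and osteoclast cultures were used as labelled. Per the submitters' processing notes, transcripts were quantified with kallisto, and DESeq2 and the build GRCh38 are also named; the deposited transcript identifiers are mouse Ensembl ones, and the annotation release is not given in the sources used here. The deposited files hold estimated counts and TPM per transcript, per the file headers, with effective length. Of 88198 transcripts, 86031 (97.5%) matched the GENCODE M21 annotation (GRCm38), from which gene names and coordinates come; the unmatched ones took 0.685 to 0.909% of counts. Estimated counts were summed over 30205 genes and rounded. Genes passing filterByExpr were scaled with TMM over the 18 wild-type libraries and tested on the 12 of the comparison with the quasi-likelihood test of edgeR 4.0.16 (limma 3.58.1, R 4.3.3), with Benjamini-Hochberg adjustment over all genes tested, a threshold of 0.05 and, for a further count, a 4-fold change. The script was tested on simulated data in which few genes changed, as many up as down. That setting does not cover a comparison in which most genes differ.

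The 32 gene lists (402 genes) and the members were chosen with earlier results of these data known. Named by rule were the 10 higher and 10 lower genes with the largest change and at least 100 CPM in the higher group, the 5 highest in TPM per group, in each list the 4 with the highest CPM and those going against it, and fixed regulators and markers; other list members were named after their values were seen, and a few are not reported here. Percentages of a reference used members with at least 10 CPM there. Alternatives were DESeq2 1.42.0, voom, other scalings and filters, a length offset, a replicate block and each library left out. No pair of replicates agreed within sampling noise (lowest chi-square per gene 6.7).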

Additional observations from a re-analysis of the deposited data

Results flagged for a closer look

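Single libraries that stood apart were sought in each gene printed above, within each group of 6, and in the list percentages of the osteoblast libraries. The gap between the most extreme library and its nearest neighbour was set against the range of the group (Dixon's test at 95%). Chance flags about 1 in 20 groups. Of 195 groups examined, 12 were flagged (6.15%), 8 among the osteoblast libraries and 4 among the macrophage libraries.

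Osteoblast replicate 6 was flagged for 4 genes. Alpl was 407 CPM there against 159 to 234 in the other 5 osteoblast libraries, Dmp1 6.15 against 1.36 to 1.86, and Col2a1 357 against 152 to 205. The MHC class II gene H2-DMa was lowest there, at 12.3 CPM against 15.9 to 17.5. The first 3 are genes of mineralising bone and of cartilage, and the mean and SD of each are pulled up by this library. In osteoblast replicate 1, Thy1 was lowest (117 CPM against 138 to 144) and Tpm1 highest (985 against 770 to 842). Cxcl12 was highest in osteoblast replicate 2 (248 CPM against 181 to 204) and H2-Ab1 in osteoblast replicate 4 (120 against 96.0 to 100).

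Among the macrophage libraries, Tnfrsf11b reached 0.359 CPM in replicate 6 and was at 0 counts in the other 5. Eng was highest in replicate 3 (47.8 CPM against 38.4 to 41.8), Atp6v1c1 highest in replicate 1 (491 against 441 to 459), and Dock2 lowest in replicate 5 (317 against 346 to 361). The cause of none of these values was tested.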

How the results depend on the processing

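No called gene, count or percentage reversed in the settings run; the housekeeping median, 0.014, was -0.015 with TMM over the 12 libraries and -0.007 without osteoblast replicate 4. The count of genes called, 10841, ran from 10590 to 12402 over the other settings and from 10641 to 10783 with a library left out; the count with a 4-fold change, 2674, ran from 2659 to 2691 with a library left out and was 4117 (671 lower) with no filter, which tested 20594 genes. Of 330 genes, 12 changed sides of the threshold in at least 1 setting, among them Eng, Fabp5, Irf7 and the housekeeping gene Tbp. The replicate block gave 10778 calls and 2680 with a 4-fold change. Same-numbered libraries of the 2 groups correlated between -0.0616 and 0.133, and only 1 of 6 correlated best with its own number. Unlike cultures of 1 mouse may share little variation, so these correlations cannot tell whether the numbers pair the samples.

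List medians (log2, members at 0 to 3 counts at their bound) that moved beyond the spread were, with limma-voom, collagen chains 11.676, matrix glycoproteins 11.422, mesenchymal factors 8.175 and contractile genes 8.918. With a length offset they were collagen chains 11.135, matrix glycoproteins 10.865, mesenchymal factors 8.172 and T cell genes 1.581. With a mean of at least 10 counts the osteocyte median was 3.486. Leaving out 1 library gave ranges of 3.748 to 5.001 (osteocyte), 11.159 to 11.644 (collagen chains), 10.812 to 11.404 (matrix glycoproteins), 7.924 to 8.18 (mesenchymal factors), 8.931 to 9.442 (contractile) and -1.02 to -0.908 (proliferation). With the wild-type osteoclast cultures as reference, chosen after seeing the data, the leukocyte and macrophage percentages were 29.8 and 78.5%. The osteoclast percentage was 13.2% in TPM, 13.1% without scaling factors and 16.1% from the summed list. The cause of these moves was not tested. The median log2 fold change of all genes was 0.05 to 0.11 over the scalings and 0.12 with no filter. Genes at 0 to 3 counts over a group are at or below the floor of 3 counts chosen here, and their folds are uncertain.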

Other observations

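Some genes listed here as osteoblast, matrix or mesenchymal genes were not confined to the osteoblast cultures when the wild-type osteoclast cultures were set beside them. They were picked after their values were seen, and the osteoclast cultures were not tested against the osteoblast cultures. Phospho1, a phosphatase of mineralising matrix vesicles, averaged 15.5 ± 3.79 CPM in the osteoblast cultures, 0.759 ± 0.159 in macrophages and 156 in the osteoclast cultures, where the 6 libraries ran from 133 to 168 CPM. Cthrc1, a secreted collagen repeat protein, averaged 933 CPM in the osteoblast cultures, 0.110 in macrophages and 11.8 in the osteoclast cultures. Lox was at 0.638 CPM in macrophages and 17.9 in osteoclast cultures, and the mesenchymal repressor Zeb1 at 1.71 and 16.6. Col1a1 did not share this pattern, at 15.6 CPM in macrophages and 8.23 in the osteoclast cultures.

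The macrophage gene with the lowest fold change over all genes tested fell outside the naming rule because its macrophage level was under 100 CPM, and it was picked after its values were seen. Tox2, an HMG-box factor (chr2:163203125-163324170), averaged 25.7 ± 7.77 CPM in macrophages and 0.0561 ± 0.0874 in the osteoblast cultures (log2 fold change -8.72, SE 0.41, edgeR adjusted p 2.9e-11). It lay far below the range of the pan-leukocyte genes, whose log2 fold changes ended at -3.00.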
